A study of Mus musculus with 30 samples.

Results

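The effect of CHP on the gastrocnemius, a fast-twitch calf muscle, was described from the 10 libraries of this tissue that came from mice on a Western diet (WD), out of 30 libraries in the series. They were chosen by their sample labels, 5 labelled WD+CHP and 5 labelled WD+water. The series holds RNA-seq of gastrocnemius and kidney, each with 5 libraries of chow diet plus water (CD), WD plus water (WD) and WD plus CHP (WD + CHP). All mice were male, wild type and C57BL/6J, and all were kept at 30 to 32 °C from 6 weeks of age, which is thermoneutral for a mouse, so that the controls shared the warm housing. Diet and treatment began at Week 7. CHP was given at 20 mg/kg by gavage 3 times per week, the other groups received water, and tissues were taken at Week 24 from animals fasted for 3 h. RNA was sequenced from each mouse separately, so that every library is 1 animal. The labels describe frozen liver and a NucleoSpin kit for all samples, whereas the methods of the study name gastrocnemius and kidney and a Direct-zol kit.

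CHP, cyclo(His-Pro), is a cyclic dipeptide of histidine and proline that arises from thyrotropin-releasing hormone. Skeletal muscle is built mainly of contractile fibres, and between them lie adipocytes, fibroblasts, vessels, nerves and macrophages. Adipocytes store triglyceride in droplets coated by perilipin and CIDE proteins and release hormones such as leptin and adiponectin, and overfeeding is known to enlarge the fat depots in and around muscle. In a piece of whole muscle, fewer cells of a type and less RNA per cell cannot be told apart.

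Depth was even, from 50319024 to 53282969 counts per gastrocnemius library (median 52399188 in WD, 52108533 in WD + CHP). Mitochondrial genes took 9.09% to 10.5% of the counts in WD and 9.49% to 11.5% in WD + CHP. No library was a copy of another of its group, as the chi-square between pairs of libraries came to 9.61 to 74.6 per gene, far above counting noise. The tissue carried the markers of fast fibres, with all 12 of them tested and the myosin heavy chain *Myh4* alone at a mean of 83049.6 CPM (counts per 1000000 counts of the library) in WD and 84819 in WD + CHP. Albumin (*Alb*), the defining transcript of liver, was at 0.648, 10.4, 48.6, 3.45 and 0.383 CPM in WD replicates 1 to 5 and at 1.07, 0.267, 0.382, 1.805 and 0.649 in WD + CHP, and of 10 liver markers 6 passed the filter on low counts. The 6 summed to 34.5 to 132 CPM per WD library, with WD replicate 3 the highest, and to 25.5 to 40.6 in WD + CHP. Haemoglobin *Hba-a1* was highest in WD replicate 1 at 21.8 CPM, and 9.40 CPM in WD + CHP replicate 1 stood above the 1.76 to 2.31 of the other 4. Slow fibre markers, 10 of 10 below 0 with a median of -0.26 (0.03 without WD replicate 2), summed to 926 to 3035 CPM in WD, with WD replicate 2 the highest, and to 1096 to 1787 in WD + CHP.

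CHP lowered more genes than it raised in the muscle of WD mice, and the falls were larger. Of 15419 genes tested, 53 were downregulated and 10 upregulated in WD + CHP vs. WD at an adjusted p under 0.05 (quasi-likelihood F test of edgeR, two-sided, Benjamini-Hochberg adjusted), which is 0.409% of the genes tested, 0.344% lower and 0.0649% higher. Genes that passed are called downregulated or upregulated below. The falls ran from -3.24 to -0.24 on the log2 scale with a median of -0.96, and 25 of them were of at least 1. The rises ran from 0.21 to 1.29 with a median of 0.31. The falls included the adipocyte hormone leptin (*Lep*, -1.89), the droplet protein *Cidec* (-1.31), adiponectin (*Adipoq*, -1.15) and the desaturase *Scd1* (-1.12), and the rises *Phlda3* (0.43) and *Endog* (0.40). At an unadjusted p under 0.05 there were 1929 genes (12.5%), 1102 lower (7.15%) and 827 higher (5.36%). In 51 of the 53 downregulated genes and all 10 upregulated ones the 5 WD + CHP libraries did not overlap the 5 WD libraries, against 436 of all genes tested (2.83%), 254 lower (1.65%) and 182 higher (1.18%). The downregulated genes were less abundant than the average, with a median of 3.99 CPM against 7.79 CPM over all genes tested, whereas the upregulated ones had a median of 27.3 CPM. Over all genes tested the median log2 fold change was -0.01, and 54.1% of genes were below 0 and 45.9% above. For scale, WD vs. CD, which shares the WD libraries, gave 1330 genes called (8.63%), 720 higher (4.67%) and 610 lower (3.96%).

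**Figure D1:**
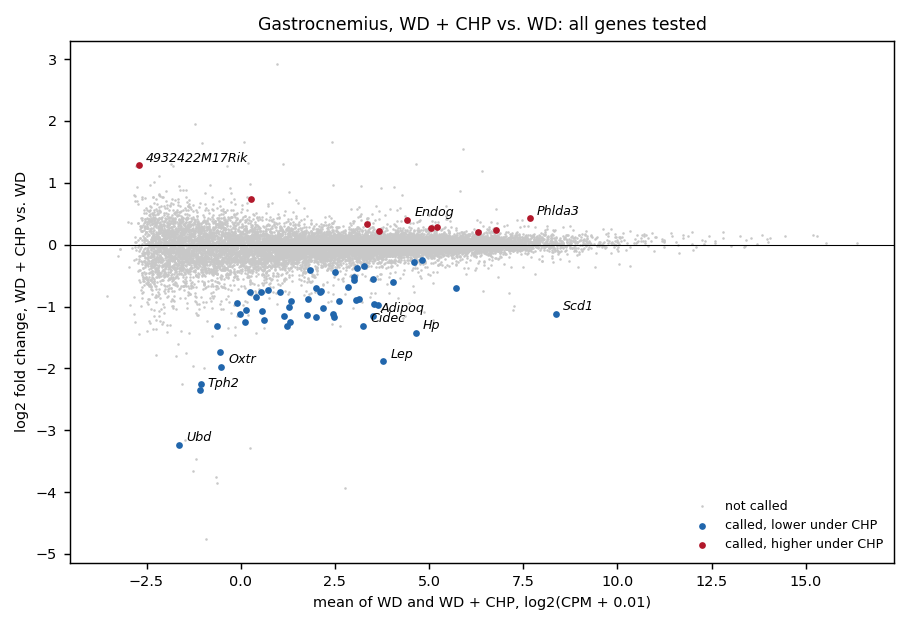
Each point is 1 of the 15419 genes tested, with its mean level in WD and WD + CHP on a log2 axis of CPM across and its log2 fold change in WD + CHP vs. WD upwards. The 53 downregulated genes (blue) reach -3.24, and 9 of the 10 upregulated ones (red) stay under 1.

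How many genes passed depended on single animals. Dropping each library in turn moved the count between 12 and 92. Omitting WD + CHP replicate 5 brought it to 12 and omitting WD replicate 1 to 18. Omission of WD replicate 2 gave 26, of WD + CHP replicate 3 also 26, and of WD + CHP replicate 1 gave 27, and the remaining 5 omissions gave 43 to 92. All 63 genes kept their direction in all 10 fits. The 11 that passed in each of the 10 were the falls of *Bmp3*, *Cidec*, *Plin1*, *Tenm4*, *Tph2*, *Ptk2b*, *Mmd*, *Aoc3*, *Prkar2b*, *Adipoq* and *Fads3*. When libraries were scaled by their total count alone, 54 genes fell and 0 rose, with a median of -0.06 over all genes. DESeq2 called 249 genes, 152 lower and 97 higher, and limma-voom 67. With the replicate number as a block 44 genes were called, 42 lower and 2 higher. With a score of adipocyte markers as a covariate 0 were called, and that score cannot be told apart from the treatment.

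**Figure D2:**
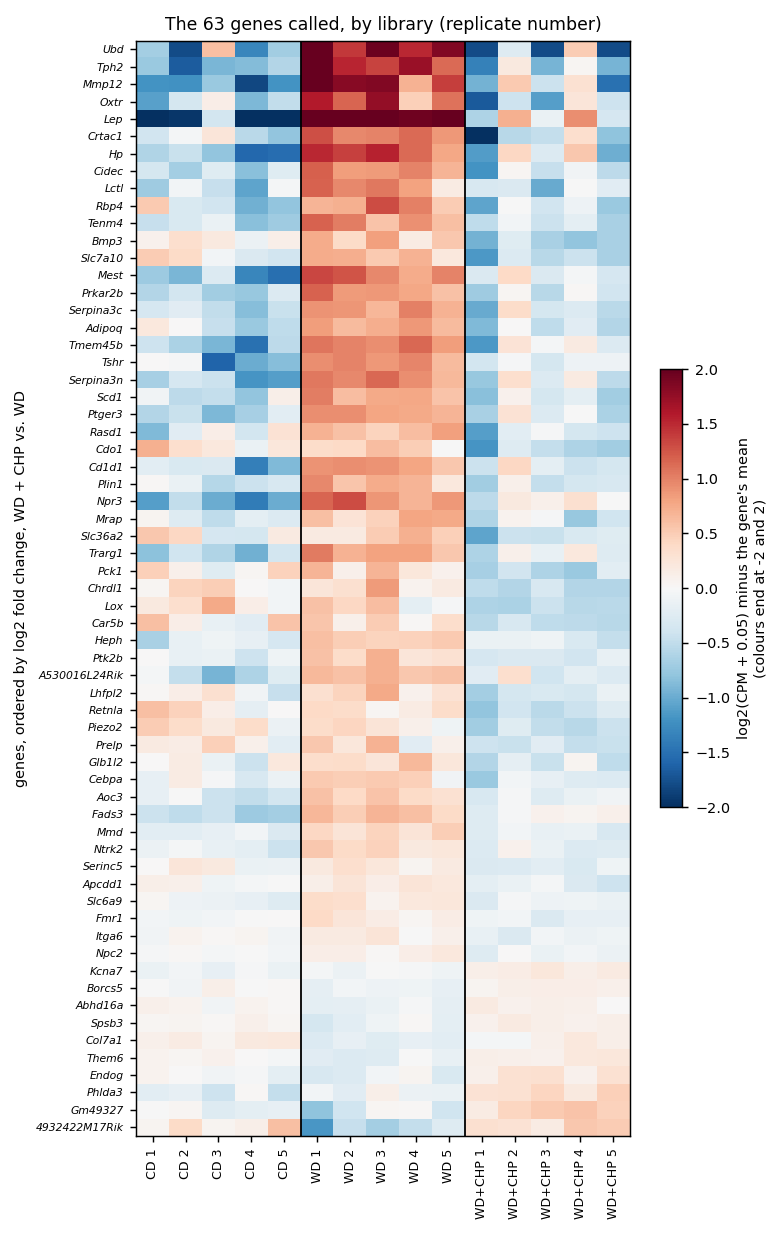
Rows are the 63 genes called, ordered by fold change, and columns are the 15 gastrocnemius libraries. Colour gives the log2 level of a gene in a library relative to its mean over the 15. Within WD + CHP, replicate 1 is the lowest in 34 of the 53 falls and replicate 2 the highest in 30.

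Of the 35 lists, that of adipocyte markers held the most falls. All 18 markers of the list were tested, 8 were downregulated (0.344% of all genes were) and 0 upregulated, 16 had a fold change below 0 (54.1% of all genes did), and the median was -0.73 against -0.01 over all genes. Between 4 and 8 passed when 1 library was left out, with 4 without WD replicate 1 or WD + CHP replicate 5 and 5 without WD + CHP replicate 1 or 3. The list was written with results of these data known, and it is described here by its counts.

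Leptin, the hormone by which fat signals its stores, was at 24.9, 23.1, 19.99, 19.4 and 21.1 CPM in the 5 WD libraries and at 3.24, 8.12, 4.52, 9.51 and 3.93 in WD + CHP (*Lep*; chromosome 6, 29060220 to 29073877, GRCm38 here and below). The highest treated animal was at less than the lowest untreated one, and CD libraries held 0.561, 1.25, 3.84, 0.5700 and 0.711 CPM. Its log2 fold change was -1.89 (standard error 0.37, adjusted p = 0.0326), and it passed in 4 of 10 fits with a library left out (adjusted p = 0.1196 without WD + CHP replicate 5). The diet difference, WD vs. CD, which shares the WD libraries, was 3.96 (adjusted p = 5.40e-05). Adiponectin, the abundant hormone of adipocytes that promotes fatty acid oxidation and insulin sensitivity, was at 16.97, 14.7, 15.6, 17.2 and 14.6 CPM in WD and 5.13, 9.52, 6.66, 8.04 and 6.298 in WD + CHP (chromosome 16, 23146536 to 23158028). The groups stood apart, with WD + CHP and CD (5.60 to 10.9 CPM) covering the same range, and the fold change was -1.15 (standard error 0.17, adjusted p = 0.00671, passing in 10 of 10 fits).

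*Cidec* (chromosome 6, 113424634 to 113435760), which joins small lipid droplets into large ones, was at 16.3, 12.8, 12.9, 14.2 and 11.4 CPM in WD and 3.08, 7.28, 5.17, 6.79 and 4.905 in WD + CHP. Every treated library was at 7.28 CPM or less and every untreated one at 11.4 or more. It fell by 1.31 on the log2 scale (standard error 0.18, adjusted p = 0.00469). Perilipin 1 (*Plin1*; chromosome 7, 79720218 to 79732903), the coat protein that gates lipolysis, was at 20.5, 15.5, 17.6, 16.9 and 12.2 CPM in WD and 6.47, 11.3, 7.52, 8.24 and 8.36 in WD + CHP, and its ranges too did not meet (-0.98, standard error 0.15, adjusted p = 0.00936). Both passed in 10 of 10 fits. In CD the means were 5.18 CPM for *Cidec* and 8.69 for *Plin1*, close to the 5.45 and 8.37 of WD + CHP. The trafficking regulator of the glucose transporter GLUT4, *Trarg1* (chromosome 11, 76679808 to 76698664), was at 9.46, 7.49, 8.02, 8.05 and 6.66 CPM in WD and 2.96, 4.92, 4.12, 5.32 and 3.84 in WD + CHP (-0.91, adjusted p = 0.0111). *Npr3* (chromosome 15, 11839896 to 11907287), the receptor that clears natriuretic peptides, was at 17.1, 18.95, 14.1, 12.2 and 13.95 CPM in WD and 5.303, 8.71, 8.21, 9.49 and 7.56 in WD + CHP (-0.96, adjusted p = 0.0147). These genes passed in 9 and 8 of 10 fits, respectively, lost without WD + CHP replicate 5 for *Trarg1* (adjusted p = 0.0511) and at their highest adjusted p without WD replicate 1 for *Npr3* (0.0606).

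The remaining markers that fell were an enzyme and a transcription factor. *Pck1* (chromosome 2, 173153048 to 173159273), the phosphoenolpyruvate carboxykinase that adipocytes use to make glycerol for triglyceride, was at 13.3, 8.93, 13.5, 9.82 and 8.84 CPM in WD and 5.24, 6.43, 5.44, 4.98 and 7.195 in WD + CHP (-0.89, standard error 0.16, adjusted p = 0.0201, passing in 6 of 10 fits). *Cebpa* (chromosome 7, 35119293 to 35121928), the C/EBP-alpha factor of adipocyte differentiation, was at 9.55, 9.33, 9.54, 9.23 and 6.32 CPM in WD and 3.96, 6.41, 5.93, 5.55 and 5.497 in WD + CHP. It is one of the 2 downregulated genes whose groups overlapped, since WD replicate 5, at 6.32 CPM, lay below the 6.41 of WD + CHP replicate 2 (-0.68, adjusted p = 0.0304, passing in 3 of 10 fits, adjusted p = 0.106 without WD replicate 1). Of the other 10 markers, *Acvr1c*, *Retn*, *Lgals12*, *Pparg*, *Fabp4* and *Lipe* were below 0 at an unadjusted p under 0.05. None of the 10 was called by edgeR, and DESeq2 called *Lgals12* (adjusted p = 0.0245). The 2 most abundant, *Plin4* and *Fabp4*, which muscle fibres and endothelium also express, were at 385 ± 76.7 and 111 ± 19.1 CPM (SD, n = 5) in WD and at 329 ± 98.8 and 89.04 ± 16.00 in WD + CHP (log2 fold changes -0.22 and -0.32, adjusted p = 0.634 and 0.347). The secreted protease *Cfd*, adipsin, was at 12.4 CPM in WD, 12.5 in WD + CHP and 37.4 in CD, and the glycerol channel *Aqp7* at 11.8, 11.8 and 11.9. Summed over the 18 markers, the WD libraries held 585 to 761 CPM and the WD + CHP libraries 438 to 705, overlapping ranges in which *Plin4* and *Fabp4* took most of the sum. As a score in which each marker counts alike (the mean of its centred log2 CPM), WD libraries lay between 0.31 and 0.56, WD + CHP libraries between -0.58 and 0.05, and CD libraries between -0.47 and 0.003.

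**Figure D3:**
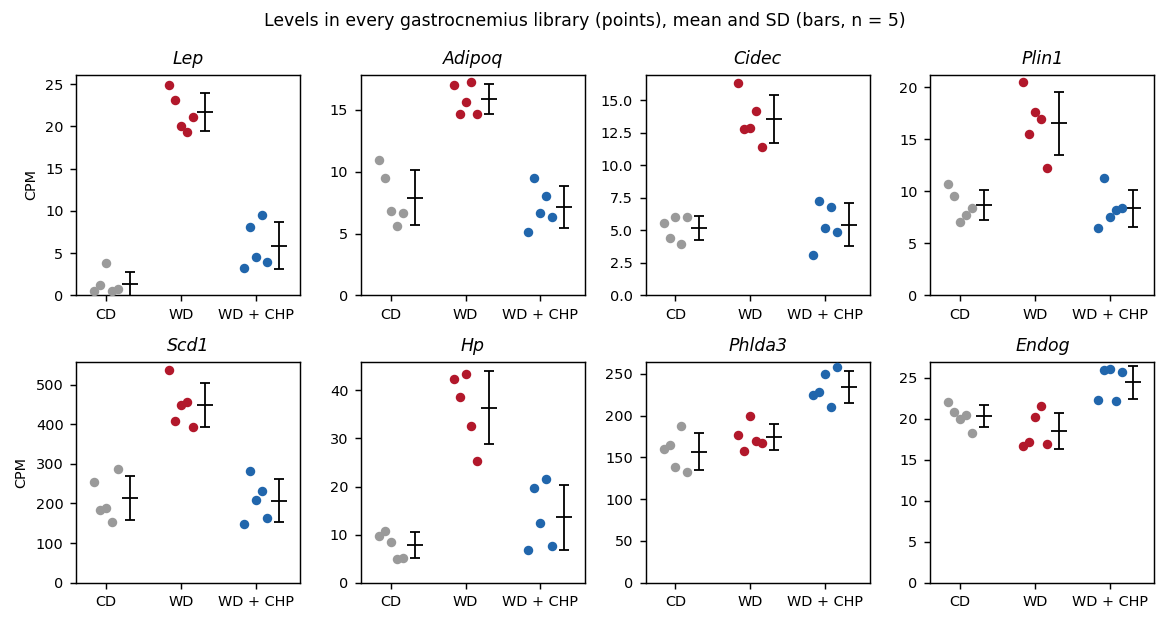
CPM of 8 genes in every gastrocnemius library, with the mean and SD of each group of 5 beside the points and each axis starting at 0. The WD + CHP points of *Lep*, *Adipoq*, *Cidec*, *Plin1*, *Scd1* and *Hp* all lie below the WD points, and those of *Phlda3* and *Endog* all lie above.

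Promoters of 3 of the downregulated adipocyte genes and 2 of the upregulated genes, selected from those with a window, are shown to set the letters upstream of genes that fell beside those of genes that rose. RefSeq windows on GRCm38.p6, from 250 bases before to 50 after the start, were found for 39 of the 63 genes, and the first window of each gene was used. Capitals mark matches on either strand to TTGCNNAA (letters bound by C/EBP factors), CCAAT and GGGCGG (a GC box).
*Lep*, chr6:29059971-29060270, plus strand: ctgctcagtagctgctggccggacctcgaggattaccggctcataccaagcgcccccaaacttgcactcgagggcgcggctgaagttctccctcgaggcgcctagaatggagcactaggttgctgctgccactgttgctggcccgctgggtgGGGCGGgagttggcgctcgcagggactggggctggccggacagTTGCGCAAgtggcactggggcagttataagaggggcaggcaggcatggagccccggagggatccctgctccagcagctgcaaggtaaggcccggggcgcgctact
*Adipoq*, chr16:23146286-23146585, plus strand: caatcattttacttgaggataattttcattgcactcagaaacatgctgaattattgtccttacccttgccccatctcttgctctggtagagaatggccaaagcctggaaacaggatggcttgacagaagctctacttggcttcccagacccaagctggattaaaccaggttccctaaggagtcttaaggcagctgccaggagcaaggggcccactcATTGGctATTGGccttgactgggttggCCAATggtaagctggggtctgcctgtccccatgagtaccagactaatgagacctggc
*Plin1*, chr7:79732727-79733026, minus strand: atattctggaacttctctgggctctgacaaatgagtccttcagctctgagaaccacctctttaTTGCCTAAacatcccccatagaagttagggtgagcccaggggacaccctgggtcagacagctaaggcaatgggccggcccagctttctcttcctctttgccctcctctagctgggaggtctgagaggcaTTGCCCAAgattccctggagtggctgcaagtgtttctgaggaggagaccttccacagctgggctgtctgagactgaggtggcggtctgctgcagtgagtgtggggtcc
*Phlda3*, chr1:135765835-135766134, plus strand: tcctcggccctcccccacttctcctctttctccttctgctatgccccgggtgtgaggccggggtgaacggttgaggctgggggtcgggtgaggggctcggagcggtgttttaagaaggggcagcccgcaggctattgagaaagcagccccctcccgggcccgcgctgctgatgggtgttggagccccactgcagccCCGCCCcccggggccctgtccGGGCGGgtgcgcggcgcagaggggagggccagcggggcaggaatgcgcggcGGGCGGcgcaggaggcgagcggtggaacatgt
*Endog*, chr2:30171274-30171573, plus strand: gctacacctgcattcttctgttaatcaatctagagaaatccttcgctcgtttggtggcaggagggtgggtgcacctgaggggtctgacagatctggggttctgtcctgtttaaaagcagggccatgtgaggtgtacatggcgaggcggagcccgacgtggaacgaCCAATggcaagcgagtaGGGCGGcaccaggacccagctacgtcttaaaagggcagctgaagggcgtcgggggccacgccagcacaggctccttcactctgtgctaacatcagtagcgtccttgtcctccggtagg
The *Lep* window held TTGCNNAA once, at bases 196 to 203 of the 300, as the palindrome TTGCGCAA, and a GGGCGG at 153 to 158. *Plin1* held TTGCNNAA at bases 64 to 71 and 193 to 200, *Adipoq* held 3 CCAAT matches, *Endog* held CCAAT and GGGCGG once each, and *Phlda3* held GGGCGG 3 times. Among the downregulated genes with a window, 6 of 32 held TTGCNNAA (18.8%), 10 held CCAAT (31.2%) and 18 held GGGCGG (56.2%), and among the upregulated ones 1, 3 and 5 of 7 did. Over all 27025 genes with a window the shares were 10.8%, 37.9% and 35.9%. These genes were not limited to those tested in muscle, so that they are no matched background for the genes called. TTGCNNAA and CCAAT can overlap by their outer letters, and a match describes the letters alone.

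Outside the marker list, stearoyl-CoA desaturase 1 (*Scd1*; chromosome 19, 44394455 to 44407879), which makes monounsaturated fatty acids, was the most abundant downregulated gene, at 538, 409, 447, 456 and 394 CPM in WD and 148, 282, 208, 231 and 164 in WD + CHP. All treated libraries lay below all untreated ones and within reach of CD, where the mean was 214 CPM, and the log2 fold change was -1.12 (standard error 0.18, adjusted p = 0.0111, passing in 9 of 10 fits, adjusted p = 0.0511 without WD + CHP replicate 5). It was the 1 gene of 19 tested in the list for fatty acid and triglyceride synthesis that passed, and that list had 8 members above 0 and a median of -0.06. In the list for lipid droplets and lipolysis *Plin1* and *Cidec* were the 2 of 17 that passed, with a median of -0.05. Over all genes 0.344% were downregulated and 45.9% were above 0. A relative of the desaturases, *Fads3* (-0.58), and the cysteine dioxygenase *Cdo1* (-1.02), which starts taurine synthesis, were downregulated as well, as were the lysosomal cholesterol carrier *Npc2* (-0.24) and *Aoc3* (-0.61), the amine oxidase of adipocyte and vascular cell surfaces.

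Other called genes are described by what they encode, an order chosen after they were called. Among those for secreted proteins, haptoglobin (*Hp*; chromosome 8, 109575128 to 109579172), which binds free haemoglobin and is made by liver and fat, was at 42.3, 38.5, 43.4, 32.5 and 25.3 CPM in WD and 6.84, 19.7, 12.3, 21.6 and 7.56 in WD + CHP. The WD + CHP libraries split into a pair near 20 CPM, replicates 2 and 4, and 3 between 6.84 and 12.3, and all were under the lowest WD library (-1.42, standard error 0.30, adjusted p = 0.0452, passing in 3 of 10 fits, adjusted p = 0.134 without WD replicate 1). The retinol carrier *Rbp4* (chromosome 19, 38116629 to 38125281) was at 2.898, 2.96, 4.51, 3.66 and 2.56 CPM in WD and 0.838, 1.77, 1.35, 1.67 and 1.05 in WD + CHP (-1.31, adjusted p = 0.0337, passing in 2 of 10 fits, adjusted p = 0.121 without WD + CHP replicate 5). Both genes are also liver transcripts, and both were highest in WD replicate 3, the library with the most *Alb*. The part of liver-type RNA in these values was not tested, and without WD replicate 3 their log2 fold changes were -1.35 and -1.17. *Bmp3* (chromosome 5, 98854415 to 98884396), a member of the bone morphogenetic protein family, was at 1.73, 1.35, 1.85, 1.14 and 1.51 CPM in WD and 0.507, 0.858, 0.6297, 0.569 and 0.6298 in WD + CHP. With -1.24 (standard error 0.16, adjusted p = 0.00361) it was among the most stable falls, and CD libraries, at 0.936 to 1.31 CPM, lay above all WD + CHP libraries. The other secreted proteins were the protease inhibitors *Serpina3c* (-1.15) and *Serpina3n* (-1.12), which belong to a family of similar neighbouring genes whose reads may be shared, the BMP antagonist *Chrdl1* (-0.88), the resistin-like *Retnla* (-0.75) and the Wnt inhibitor *Apcdd1* (-0.41).

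Of the downregulated genes that encode receptors, channels or transporters, the oxytocin receptor *Oxtr* (chromosome 6, 112473683 to 112489943) was at 1.37, 1.01, 1.55, 0.609 and 0.957 CPM in WD and 0.0975, 0.305, 0.172, 0.5100 and 0.305 in WD + CHP, with no overlap (-1.98, standard error 0.35, adjusted p = 0.0187, passing in 6 of 10 fits, adjusted p = 0.0726 without WD replicate 1). The other receptors were the thyrotropin receptor *Tshr* (-1.13), the prostaglandin E receptor *Ptger3* (-1.07), the neurotrophin receptor *Ntrk2* (-0.53), the melanocortin receptor's accessory protein *Mrap* (-0.95) and the laminin-binding integrin chain *Itga6* (-0.28). *Tshr* passed in 0 of 10 fits with a library left out, as did the small GTPase *Rasd1* (-1.06) and the amino acid transporter *Slc36a2* (-0.91). Amino acid and glycine carriers *Slc7a10* (-1.22) and *Slc6a9* (-0.37), the serine incorporator *Serinc5* (-0.44), the copper-dependent ferroxidase *Heph* (-0.76) and the mechanosensitive channel *Piezo2* (-0.73) completed the group.

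Signalling genes included the smallest adjusted p-values. *Mmd* (chromosome 11, 90249456 to 90278589), a membrane protein named for monocyte to macrophage differentiation, was at 13.99, 12.5, 14.2, 12.4 and 14.7 CPM in WD and 8.71, 10.01, 9.45, 9.51 and 8.32 in WD + CHP (-0.56, standard error 0.07, adjusted p = 0.00358), and CD libraries lay between 8.51 and 10.1. *Prkar2b* (chromosome 12, 31958476 to 32061296), the regulatory subunit of protein kinase A that prevails in fat and brain, was at 6.81, 5.45, 5.52, 5.13 and 4.52 CPM in WD and 1.81, 3.09, 2.02, 3.04 and 2.27 in WD + CHP (-1.16, standard error 0.15, adjusted p = 0.00361). *Tenm4* (chromosome 7, 96171246 to 96911093), a teneurin that spans the cell membrane, was at 4.29, 3.82, 2.78, 3.56 and 2.85 CPM in WD and 1.29, 1.79, 1.37, 1.61 and 1.16 in WD + CHP (-1.26, standard error 0.16, adjusted p = 0.00361). In each of these genes the untreated minimum was above the treated maximum. The tyrosine kinase *Ptk2b* (-0.76) belongs here too. *Tph2* (chromosome 10, 115078641 to 115185022), the neuronal enzyme that starts serotonin synthesis, was a gene of low level at 1.07, 0.749, 0.658, 0.868 and 0.555 CPM in WD, from 56, 40, 36, 47 and 29 counts, and 0.0585, 0.267, 0.0954, 0.235 and 0.0954 in WD + CHP, from 3, 14, 5, 12 and 5 counts (-2.36, standard error 0.33, adjusted p = 0.00469).

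Matrix and immune genes were few. Lysyl oxidase (*Lox*; chromosome 18, 52516067 to 52529867), which crosslinks collagen, was at 13.6, 12.1, 14.02, 7.97 and 8.996 CPM in WD and 5.95, 5.83, 6.72, 6.16 and 6.22 in WD + CHP. The WD libraries ranged widely, the lowest of them being WD replicate 4, and CD libraries, at 8.80 to 15.5 CPM, resembled WD (-0.88, standard error 0.16, adjusted p = 0.02501, passing in 2 of 10 fits, adjusted p = 0.0822 without WD replicate 1). The macrophage elastase *Mmp12* (chromosome 9, 7344381 to 7369499) was at 1.32, 0.824, 0.841, 0.351 and 0.593 CPM in WD and 0.07798, 0.305, 0.134, 0.255 and 0.0382 in WD + CHP, from 19 to 69 counts against 2 to 16 (-2.26, standard error 0.41, adjusted p = 0.02501, passing in 5 of 10 fits, adjusted p = 0.0957 without WD + CHP replicate 1). The cartilage matrix protein *Crtac1* (chromosome 19, 42283035 to 42431783) was at 1.22, 0.955, 0.987, 1.09 and 0.8996 CPM in WD and 0.0585, 0.305, 0.324, 0.608 and 0.248 in WD + CHP (-1.73, adjusted p = 0.0304, passing in 4 of 10 fits, adjusted p = 0.113 without WD + CHP replicate 5). In all of these the groups did not overlap, whereas *Prelp* (-0.70), a leucine-rich matrix proteoglycan, was the other downregulated gene whose groups did, at 44.7 to 84.9 CPM in WD and 37.4 to 44.8 in WD + CHP.

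The largest fall of all, that of *Ubd* (chromosome 17, 37193892 to 37196095), the ubiquitin-like modifier FAT10 that interferon-gamma and tumour necrosis factor induce, rested on few reads. It had 41, 22, 34, 24 and 30 counts in WD, or 0.782, 0.412, 0.621, 0.443 and 0.574 CPM, and 0, 5, 0, 10 and 0 counts in WD + CHP, where a count of 0 allows up to 3 counts. CD libraries, with 0 to 11 counts, were as low as the treated ones. The log2 fold change was -3.24 (standard error 0.66, adjusted p = 0.0441), and it passed in 2 of 10 fits (adjusted p = 0.135 without WD + CHP replicate 1) and not in DESeq2 (adjusted p = 0.0718). *Cd1d1* (-1.003), which presents lipid antigens to NKT cells, was the other immune gene, and it has a close relative whose reads may be shared. *Lctl* (chromosome 9, 64117147 to 64138118), a klotho-like relative of lactase, was at 1.14, 0.974, 1.04, 0.868 and 0.536 CPM in WD and 0.3704, 0.381, 0.2099, 0.471 and 0.401 in WD + CHP (-1.31, adjusted p = 0.0304, passing in 3 of 10 fits, adjusted p = 0.108 without WD replicate 1). The other downregulated genes were *Mest* (-1.17), *Tmem45b* (-1.14), *Car5b* (-0.84), *A530016L24Rik* (-0.76), *Lhfpl2* (-0.76), *Glb1l2* (-0.70) and *Fmr1* (-0.35), of which *Mest* is an imprinted gene that rises in growing fat depots, *Car5b* a mitochondrial carbonic anhydrase and *Fmr1* encodes an RNA-binding protein. Exons of *Mest*, *Slc7a10* and *Slc6a9* overlap those of *Copg2*, *Lrp3* and *B4galt2*. Those of *Lctl*, *Glb1l2*, *Mmd*, *Prelp* and *Cebpa* overlap the less abundant *Zwilch*, *B3gat1*, *Gm45716*, *Gm15851* and *Gm45091*, and the strand setting of the counts is not given in the sources used here, so that their reads are uncertain.

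No pair of the 10 upregulated genes stood in the same list, and 9 of them rose by less than 1 on the log2 scale. With total count scaling 0 genes were called higher, and likewise without WD replicate 1, WD replicate 2 or WD + CHP replicate 5. *Phlda3* (chromosome 1, 135766119 to 135769136), a p53 target that restrains AKT at the membrane, was the most abundant of them at 177, 157, 199, 169.5 and 168 CPM in WD and 224, 228, 249, 211 and 258 in WD + CHP. The lowest treated library was above the highest untreated one, and CD libraries, at 133 to 187 CPM, lay with the untreated (0.43, standard error 0.09, adjusted p = 0.0452, passing in 1 of 10 fits, adjusted p = 0.153 without WD replicate 2). It was the 1 of 18 p53 targets that passed (0.0649% of all genes were upregulated), and 14 of the 18 were below 0 (54.1% of all genes were). *Endog* (chromosome 2, 30171493 to 30174069), the nuclease of the mitochondrial intermembrane space, was at 16.7, 17.2, 20.2, 21.6 and 16.9 CPM in WD and 22.3, 25.9, 26.05, 22.2 and 25.7 in WD + CHP (0.40, standard error 0.08, adjusted p = 0.0334, passing in 4 of 10 fits, adjusted p = 0.113 without WD replicate 1), and was the 1 of 18 genes of mitochondrial maintenance that passed. *Them6* (chromosome 15, 74721204 to 74724639), a thioesterase superfamily member, was at 8.69, 8.39, 8.44, 10.1 and 9.17 CPM in WD and 10.96, 10.9, 10.8, 11.8 and 11.9 in WD + CHP (0.33, adjusted p = 0.0161). It was the most stable rise, passing in 7 of 10 fits (adjusted p = 0.0643 without WD replicate 2).

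Type VII collagen (*Col7a1*; chromosome 9, 108953586 to 108984875), which forms anchoring fibrils, was at 32.2, 34.6, 32.9, 34.7 and 33.5 CPM in WD and 37.7, 37.9, 41.8, 44.9 and 42.2 in WD + CHP (0.28, adjusted p = 0.02501). The muscle potassium channel *Kcna7* (chromosome 7, 45405653 to 45409763) was at 73.8, 69.8, 75.2, 74.97 and 71.4 CPM in WD and 82.2, 83.9, 88.6, 82.4 and 85.5 in WD + CHP (0.21, adjusted p = 0.0304). CD libraries resembled WD + CHP for *Col7a1* (40.3 to 44.9 CPM) and WD for *Kcna7* (68.0 to 74.3 CPM). The phosphatidylserine lipase *Abhd16a* (chromosome 17, 35089263 to 35102987) was at 95.98, 96.99, 100, 108 and 96.99 CPM in WD and 124, 116, 119, 118 and 111 in WD + CHP (0.24, adjusted p = 0.0334). *Spsb3* (chromosome 17, 24886643 to 24892152), a SOCS box protein, was at 26.3, 29.01, 31.6, 34.3 and 29.4 CPM in WD and 35.6, 37.8, 36.4, 35.5 and 36.4 in WD + CHP (0.27, adjusted p = 0.0452). *Borcs5* (chromosome 6, 134639510 to 134711187), a subunit of the complex that positions lysosomes, was at 11.1, 12.1, 11.8, 11.9 and 11.2 CPM in WD and 13.1, 13.7, 13.9, 13.8 and 13.5 in WD + CHP (0.23, adjusted p = 0.04301). These 5 genes were tightly measured, with no treated library inside the untreated range, and they passed in 4, 3, 1, 1 and 1 of 10 fits, respectively, with the highest adjusted p from 0.0822 (*Col7a1*, without WD replicate 1) to 0.149 (*Spsb3*, without WD replicate 2). The pseudogene *Gm49327* (chromosome 12, 17933164 to 17939628) was at 0.6100, 0.824, 1.13, 1.13 and 0.823 CPM in WD and 1.25, 1.51, 1.603, 1.67 and 1.55 in WD + CHP (0.74, adjusted p = 0.0452, passing in 2 of 10 fits). The largest rise, that of the non-coding RNA *4932422M17Rik* (chromosome 5, 123138931 to 123141569), came from 2, 5, 4, 5 and 6 counts in WD and 10, 10, 9, 12 and 12 in WD + CHP (1.29, standard error 0.27, adjusted p = 0.0452, passing in 1 of 10 fits and not in DESeq2, where the adjusted p was 0.0921), and its exons overlap those of *AI480526*, as the exons of *Endog* and *Spsb3* overlap *Spout1* and *Eme2*.

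In the lists of energy metabolism of the fibres edgeR called 0 genes, whereas DESeq2 called *Gapdh* (adjusted p = 0.00249), the phosphofructokinase *Pfkm* (0.01504) and *Uqcrc1* (0.04697), all higher in WD + CHP. Of 23 genes of glycolysis and glycogen, 20 were above 0 (45.9% of all genes were) with a median of 0.10, and 10 were higher at an unadjusted p under 0.05 (5.36% of all genes were). With libraries scaled by total count 15 of the 23 were above 0. *Gapdh* was at 6588, 6258, 6424, 6991 and 6748 CPM in WD and 7808, 7927, 7814, 7309 and 7226 in WD + CHP (0.21, adjusted p = 0.124), and *Aldoa*, the muscle aldolase, at 13779 ± 889.8 and 15358 ± 592 CPM (SD, n = 5; 0.16, adjusted p = 0.276). The list summed to 48642 to 54105 CPM in WD and 55152 to 58864 in WD + CHP, without overlap, but to 49589 to 55670 and 54743 to 57930 CPM, which overlap, when libraries were scaled by total count. Of 32 nuclear genes of oxidative phosphorylation 21 were above 0 with a median of 0.04, which turned negative under total count scaling, with *Uqcrc1* at 0.18 (adjusted p = 0.172) and *Atp5b* at 0.10 (adjusted p = 0.364). Of 13 mitochondrially encoded ones 9 were, with a median of 0.11 and *mt-Co1* at 0.14 (adjusted p = 0.399). In the 25 genes of fatty acid uptake and oxidation the fatty acid transporter *Cd36* was at -0.28 (adjusted p = 0.239) and the pyruvate dehydrogenase kinase *Pdk4* at 0.17 (adjusted p = 0.674), with a list median of -0.03. In the 20 genes of insulin signalling and glucose uptake the kinase *Akt1* was at 0.17 (adjusted p = 0.182) and the GLUT4 gene *Slc2a4* at 0.13 (adjusted p = 0.389), with a median of -0.05 and 5 genes higher and 2 lower at an unadjusted p under 0.05. At that p the nuclear oxidative phosphorylation list had 5 higher and 0 lower, the mitochondrial one 1 and 0, and the fatty acid list 2 and 2.

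Most members of the immune and matrix lists lay below 0, and few passed. DESeq2 added *Ifit2* (adjusted p = 0.0216), *Thbs2* (0.0323), *Tnc* (0.0371), *Adamts5* (0.0216) and *Orm1* (0.0106), all lower, to the genes that edgeR called in them. Of 10 macrophage markers 10 were below 0 (median -0.36, 0 called, 2 at an unadjusted p under 0.05), with the scavenger receptor *Cd163* at 20.7, 19.4, 15.97, 11.9 and 9.61 CPM in WD and 9.86, 12.9, 12.4, 9.34 and 8.34 in WD + CHP (-0.55, adjusted p = 0.233). Their sum was 88.04 to 129 CPM in WD and 65.6 to 127 in WD + CHP, an overlapping range. Of 12 antigen presentation genes 12 were below 0 (median -0.19, 2 at an unadjusted p under 0.05), with *B2m* (-0.29, adjusted p = 0.157), and of 25 interferon-stimulated genes 21 were (median -0.21, 8 lower and 0 higher at an unadjusted p under 0.05, against 7.15% and 5.36% of all genes), with *Ifit2* at the smallest p (-0.44, adjusted p = 0.104). The leukocyte gene *Ptprc*, the 1 of 10 lymphocyte markers that passed the filter, was at 2.87 ± 0.538 and 1.997 ± 0.344 CPM (SD, n = 5; -0.52, adjusted p = 0.169). Of 23 matricellular and crosslinking genes 20 were below 0 (median -0.27, 8 lower and 0 higher at an unadjusted p under 0.05) and *Lox* was called, of 17 matrix proteases and inhibitors 13 were (median -0.15, 4 lower and 1 higher at that p) and *Mmp12* was called, and of 20 cytokine and acute phase genes 13 were (median -0.05, 3 lower and 1 higher at that p) and *Hp* was called. Collagens were centred near 0 (14 of 23 below, median -0.01), with *Col12a1* at -0.79 (adjusted p = 0.225) and *Hspg2* at 0.10 (adjusted p = 0.634). Over all genes 54.1% were below 0.

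**Figure D4:**
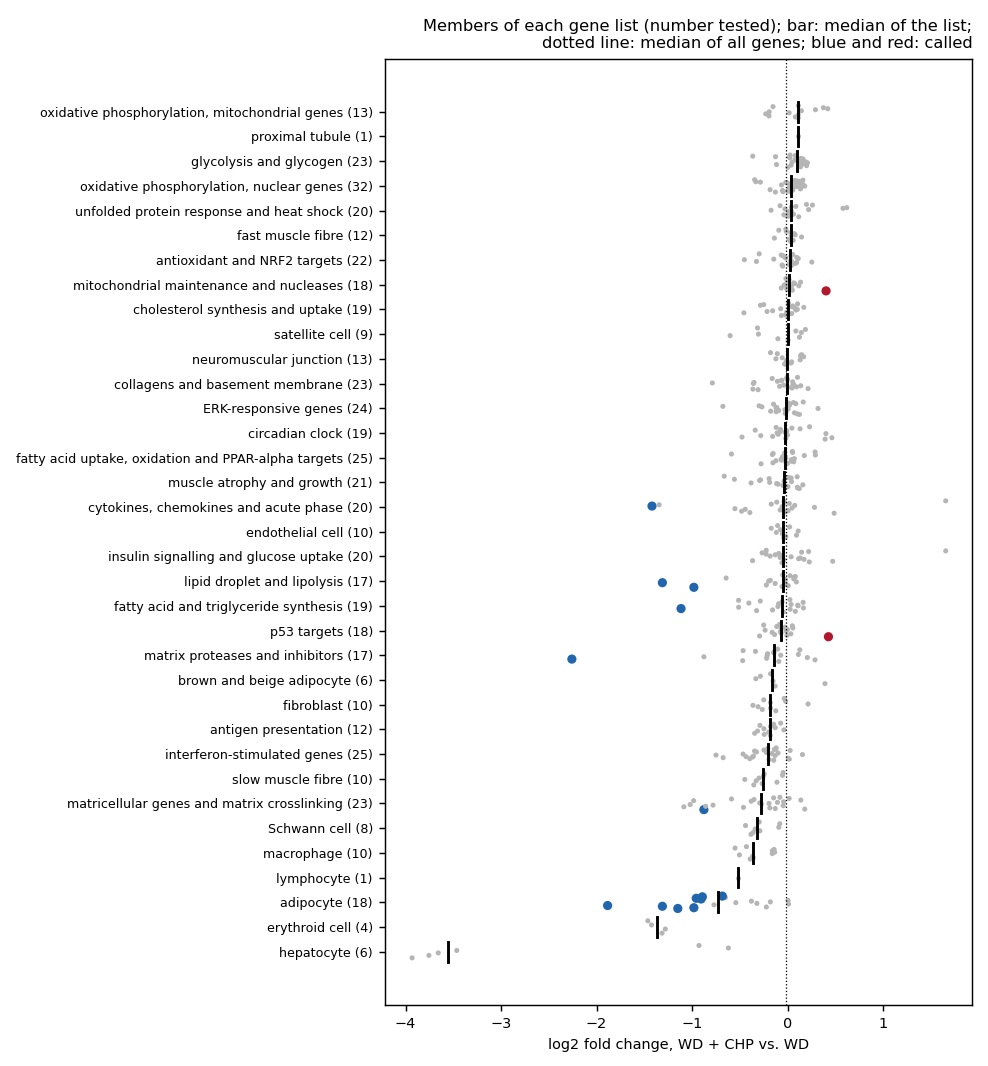
Each point is a gene of 1 of 35 lists, with its log2 fold change in WD + CHP vs. WD across, the number tested in brackets, a bar at the list's median and a dotted line at the median of all genes, -0.01. Blue and red points are genes called, of which the adipocyte list holds 8 and the other lists 0 to 2.

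Markers of other cells were read in the same libraries, and their part in the falls was not tested. Fast fibre markers summed to 184214 to 215265 CPM in WD and 187046 to 218711 in WD + CHP, led by *Myh4* and *Atp2a1*. Fibroblast markers summed to 1315 to 2097 and 1278 to 1805 CPM (9 of 10 below 0, with *Dcn* at -0.27, adjusted p = 0.323), and endothelial ones to 399 to 468 and 397 to 446 CPM (7 of 10 below 0, with *Vwf* at -0.17, adjusted p = 0.345). Each of these ranges overlapped, and 54.1% of all genes were below 0. Satellite cell markers, led by *Sdc4* and *Cdh15*, summed to 83.5 to 91.9 and 77.2 to 103 CPM. Erythroid markers summed to 3.52 to 49.03 and 4.26 to 20.1 CPM, led by *Hba-a1* (-1.32, adjusted p = 0.389) and *Hbb-bs*, and the liver markers *Trf* and *Alb* were at -0.62 (adjusted p = 0.157) and -3.93 (adjusted p = 0.273). With 1 library left out *Hba-a1* ranged from -2.07 to -0.66, *Trf* from -0.74 to -0.45 and *Alb* from -4.42 to -2.17. All 4 erythroid and all 6 liver markers tested were lower in WD + CHP at an unadjusted p under 0.05 in edgeR (7.15% of all genes were) and 0 were called by it, whereas DESeq2 called *Trf* (adjusted p = 0.0376). Markers of 1 list can vary together between libraries, so that these counts are not independent. The groups overlapped in each of these markers, and the liver markers summed to 42.1 to 124 CPM in CD. Of the brown fat markers 6 of 8 passed the filter and the defining *Ucp1* did not. Of the 6, 5 were below 0 (median -0.17, and 0.17 without WD replicate 5). Their sum was 68.1 to 96.1 CPM in 4 WD libraries, 254 in WD replicate 5, and 89.9 to 124 in WD + CHP, with the coactivator *Ppargc1a*, which muscle fibres also express, above 0 at 0.39 (adjusted p = 0.352). Of 10 proximal tubule markers 1 passed, the water channel *Aqp1* of endothelium.

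In the lists of stress, growth and timing edgeR called 0 genes, and DESeq2 called 2 antioxidant genes, *Srxn1* (higher, adjusted p = 0.0106) and the extracellular superoxide dismutase *Sod3* (lower, 0.0434). The unfolded protein and heat shock list had 15 of 20 above 0 (median 0.03), with *Hspa1a*, an inducible heat shock protein, at 0.58 (adjusted p = 0.189). The antioxidant list had 12 of 22 above 0 (median 0.02), with the sulfiredoxin *Srxn1* at 0.25 (adjusted p = 0.0977). Cholesterol genes had 10 of 19 above 0 (median 0.01), with *Nr1h2* at 0.10 (adjusted p = 0.274). These 3 medians turned negative under total count scaling. Over all genes 45.9% were above 0 and 54.1% below. Among atrophy and growth genes 12 of 21 were below 0, with the lysosomal protease *Ctsl* at -0.19 (adjusted p = 0.223). Neuromuscular junction genes had 7 of 13 below 0, with *Utrn* at -0.18 (adjusted p = 0.2703), and ERK-responsive genes 13 of 24, with *Spred1* at -0.18 (adjusted p = 0.357). Of 19 clock genes 13 were below 0, and the repressor *Nr1d1* was at 138 ± 25.8 CPM in WD and 182 ± 33.96 in WD + CHP (SD, n = 5; 0.40, adjusted p = 0.274).

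Kidney libraries of the same 3 groups were used to ask whether these differences were shared. In kidney, 18 of 17120 genes (0.105%) were called in WD + CHP vs. WD. Of the 63 genes called in gastrocnemius 56 were tested in kidney and 0 were called there, and the falls tested had a median of 0.004 in kidney, 22 below 0 and 24 above. Of the rises, 9 were below 0 in kidney and 1 above. The difference between the 2 tissues, tested as an interaction in 1 fit of 30 libraries taken as independent, passed in 65 of 18708 genes (0.347%), 54 with the lower difference in gastrocnemius and 11 with the higher. Both tissues come from the same study, and which libraries came from 1 mouse is not given in the sources used here, so that shared animals could not be entered in the fit. Among these genes were 22 of the 63, 20 falls and 2 rises. The 63 were picked on the gastrocnemius side of this test, so that this number describes them and tests nothing. The 20 falls were *Ptk2b*, *Fads3*, *Mmp12*, *Heph*, *Ptger3*, *Tenm4*, *Tmem45b*, *Npr3*, *Chrdl1*, *Fmr1*, *Glb1l2*, *Mmd*, *Car5b*, *Oxtr*, *Cdo1*, *Ubd*, *Tshr*, *Bmp3*, *Piezo2* and *Npc2*, and the rises *Abhd16a* and *4932422M17Rik*. *Ptk2b*, for example, was at -0.76 in gastrocnemius and 0.01 in kidney (adjusted p of the difference = 0.00178), and *Bmp3* at -1.24 and -0.01 (0.0266). For *Hp* (-2.45 in kidney, standard error 0.90), *Rbp4* (-2.77, 0.94) and *Serpina3n* (-1.13, 0.46) the kidney values were below 0 and were not called, and the difference between tissues did not pass (adjusted p = 0.756 for *Hp* and 0.626 for *Rbp4*). In kidney *Hp* was at 0.527, 0.584, 0.561, 0.9800 and 18.3 CPM in WD and 0.501, 0.565, 0.613, 1.01 and 0.988 in WD + CHP, and *Rbp4* at 0.763, 0.584, 0.801, 0.715 and 21.3 and 0.369, 0.753, 0.8000, 1.01 and 0.454. WD replicate 5 alone stood above the rest, as it did for *Serpina3n* at 5.77 CPM. Nor did the difference pass for *Cidec* (adjusted p = 0.461), *Adipoq* (0.395), *Plin1* (0.296) or *Scd1* (0.1998), of which kidney held 0.546, 0.281, 0.323 and 235 CPM in WD.

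**Figure D5:**
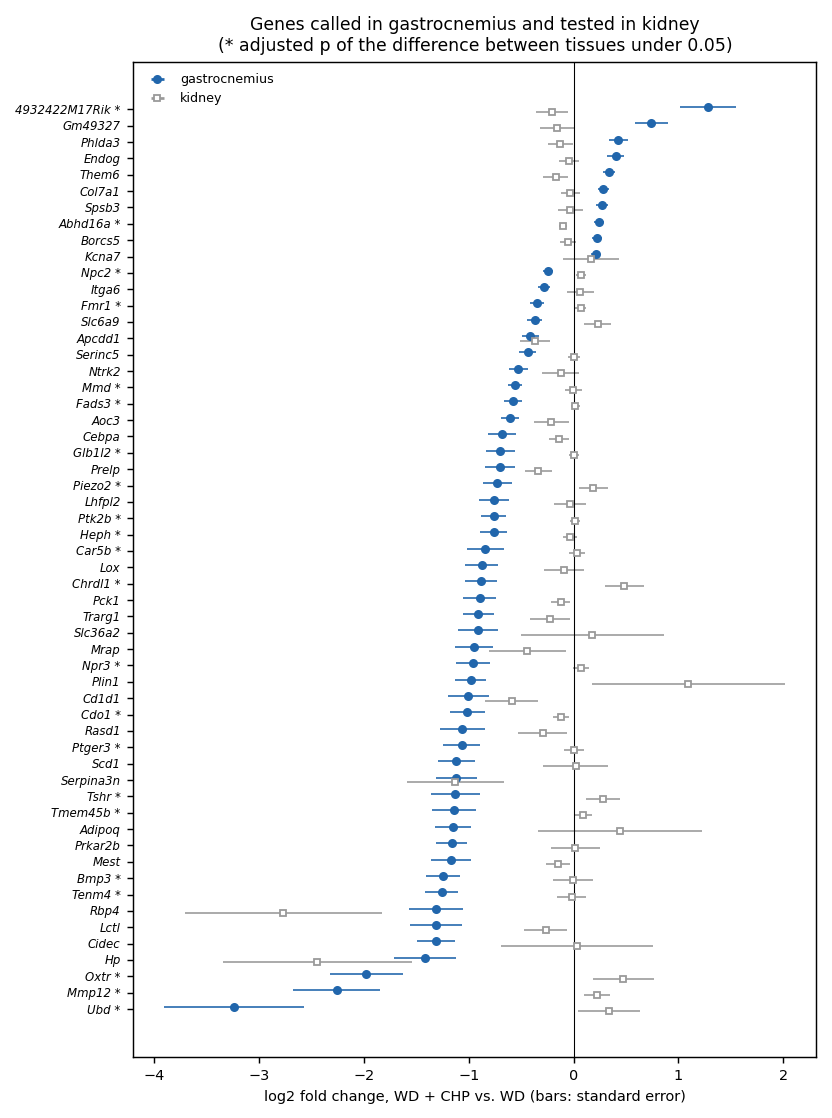
Log2 fold changes in WD + CHP vs. WD, with standard errors, of the 56 genes called in gastrocnemius and tested in kidney. Filled circles are gastrocnemius and open squares kidney, and a star marks an adjusted p of the difference under 0.05. The kidney values of the falls scatter around 0, with a median of 0.004.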

How the data were processed

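RNA of each mouse was enriched for polyA and sequenced on the BGISEQ platform, and the submitters' processing notes name STAR 2.7.3a and GRCm38. The authors deposited raw counts per gene, not normalised, and the counting tool and strand setting are not given in the sources used here. All columns were matched to a library, with 0 left over. Everything below was computed from these counts. filterByExpr (minimum count 10) selected the genes tested (15419 of 55487, 99.95% of counts), which were scaled by TMM and fitted over the 3 gastrocnemius groups in edgeR 4.0.16 (quasi-likelihood F test, two-sided, Benjamini-Hochberg over all genes, threshold 0.05) in R 4.3.3. CPM use TMM-scaled library sizes, list scores log2 CPM with a prior count of 2, and a standard error is the fold change divided by the root of its F. The p-values measure the spread between these mice. The common biological coefficient of variation was 11.6%. At these depths a CPM of 1 is about 52 counts, so genes under that level carry wide counting errors. Coordinates are from GENCODE M21, which held 15405 of the genes kept. DESeq2 1.42.0, limma 3.58.1, other scalings and filters, a replicate block, an adipocyte score as a covariate and each library left out were the alternatives. The model was tested on simulated counts of 15419 genes, where it called 51 of 100 genes changed by 0.5 on the log2 scale, 77 of 100 changed by 1, and 5 unchanged genes. Figures were drawn with matplotlib 3.10.9. Every gene called is named. Values in every library were given for the 10 largest falls and rises, the smallest adjusted p-values and the called genes of a list. From a list without calls the 2 most abundant genes and the 1 with the smallest p could be named, and other names were chosen after their values were seen. The result of 1 cell type marker list is not reported here. The genes, the lists and the comparison were chosen with earlier results of these data known.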

Additional observations from a re-analysis of the deposited data

Results flagged for a closer look

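Of 156 groups of 5 libraries searched among the genes called, the marker sums, the depth and the mitochondrial share, 11 held a library far from the other 4 (a gap of more than 0.71 of the range), where chance gives about 1 in 20. In WD + CHP replicate 2 these were *Cd1d1* at 2.44 CPM (1.33 to 1.58 in the others), *Car5b* at 1.07 (0.897 to 0.935) and *A530016L24Rik* at 2.14 (1.26 to 1.45). *Prelp* was at 44.8 CPM in WD + CHP replicate 3 (37.4 to 39.3), *Chrdl1* at 6.32 in WD replicate 3 (3.64 to 4.33) and *Cebpa* at 6.32 in WD replicate 5 (9.23 to 9.55). Marker sums stood apart for brown fat in WD replicate 5 (254 CPM against 68.1 to 96.1), erythroid cells in WD + CHP replicate 1 (20.1 against 4.26 to 5.59), liver in WD replicate 3 (132 against 34.5 to 54.4) and the proximal tubule marker *Aqp1* in WD + CHP replicate 4 (379 against 290 to 304). WD replicate 5 also had the fewest counts, 50319024.

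By the interaction test the CHP difference differed between gastrocnemius and kidney in 65 of 18708 genes (0.347%), among them 22 of the genes called. The genes called were picked on the gastrocnemius side of this test, so that the 22 are a description and no test. The log2 difference, gastrocnemius minus kidney, was at least 1 in size for *Ubd* (-3.57), *Mmp12* (-2.48), *Oxtr* (-2.44), *Tshr* (-1.40), *Chrdl1* (-1.36), *Tenm4* (-1.23), *Bmp3* (-1.23), *Tmem45b* (-1.22), *Ptger3* (-1.07), *Npr3* (-1.02) and *4932422M17Rik* (1.499). It was smaller for *Piezo2* (-0.91), *Cdo1* (-0.89), *Car5b* (-0.87), *Ptk2b* (-0.77), *Heph* (-0.72), *Glb1l2* (-0.70), *Fads3* (-0.59), *Mmd* (-0.55), *Fmr1* (-0.41), *Npc2* (-0.30) and *Abhd16a* (0.35). The adjusted p ran from 0.00178 for *Ptk2b* to 0.0364 for *Npc2*. With a library left out, 12 to 27 of the 63 genes passed, with 12 without WD replicate 1.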

How the results depend on the processing

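The 63 calls became 249 in DESeq2 (97 higher, 152 lower, 61 of the 63 among them), 40 without a filter on low counts (31251 genes tested), 26 when a log2 fold change of at least 1 was also asked (1 higher, 25 lower) and 0 with the adipocyte score as a covariate, where 1061 genes had an unadjusted p under 0.05. They were 12 to 92 with 1 library left out. The score is built from the 18 adipocyte markers, which hold 8 of the 63 genes and were listed with results of these data known. Its separation of the groups was thus largely fixed beforehand. The score did not overlap between WD and WD + CHP, so that it and the treatment cannot be told apart. Under it *Adipoq* went from -1.15 to -0.05 and *Plin1* from -0.98 to -0.11, while *Mmd* was at -0.56 and -0.54. The cause of these changes was not tested, and 56 of the 63 genes kept their direction under the score. With it the log2 fold change changed sign for *Cd1d1* (0.15), *Cebpa* (0.061), *Hp* (0.25), *Tmem45b* (0.18), *Serpina3c* (0.058), *Serpina3n* (0.044), *Rbp4* (0.0071), *Fabp4* (0.31), *Cd36* (0.0018), *Cd163* (0.14), *Ppargc1a* (-0.0067) and *Dcn* (0.11). Among the 63 genes called and 32 others followed in every setting, none reversed in the other 8 refits or with a library left out. The 18 adipocyte markers, 16 of them below 0, were all below 0 under total count scaling and under the replicate block, so that *Cfd* and *Aqp7*, which lay just above 0, changed sign there. Limma-voom gave 67 calls, DESeq2's size factors 62, total count 54, at least 10 counts in every library 58, the 10 WD and WD + CHP libraries alone 49 and an adjusted p under 0.1 gave 93. The interaction gave 65 genes, 291 in DESeq2 and 19 to 145 with 1 library left out, with 19 without WD replicate 1, 29 without WD + CHP replicate 3 or 5, 113 without WD replicate 5 and 145 without WD replicate 4.

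Whether the replicate numbers of the labels pair the animals is not given in the sources used here, and correlations in 5 pairs cannot settle it. Same-numbered WD and WD + CHP libraries correlated at -0.083 to 0.146, over 0.1 in 2 of 5 pairs, and 2 of 5 WD libraries correlated best with their own number. With the replicate number as a block 44 genes were called (2 higher, 42 lower) and 72 in the interaction. Genes with few counts (*Ubd*, *Tph2*, *Mmp12*, *4932422M17Rik*) limit what these libraries can show, as does the small number of animals.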

Other observations

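A further 30 genes had an adjusted p between 0.05 and 0.1 in edgeR, 21 lower and 9 higher in WD + CHP, and edgeR called none of them. DESeq2 called at least *Srxn1* among them (adjusted p = 0.0106, and 0.0977 in edgeR). The 5 largest falls among them and the 3 largest rises are given with their log2 fold changes and the mean levels in WD and WD + CHP (n = 5 each), chosen after their values were seen. The falls were *Tnfrsf11b* (-1.26, 0.325 and 0.135 CPM, adjusted p = 0.0669), *Gm13301* (-1.14, 0.609 and 0.274 CPM, adjusted p = 0.0669), *Arxes2* (-1.01, 0.662 and 0.327 CPM, adjusted p = 0.0771), *Slc6a13* (-0.92, 1.45 and 0.765 CPM, adjusted p = 0.06901) and *Klhdc7a* (-0.86, 2.16 and 1.19 CPM, adjusted p = 0.0604). *Tnfrsf11b* encodes osteoprotegerin, a decoy receptor of bone remodelling, and *Slc6a13* a carrier of GABA. The rises were *Crip3* (0.98, 0.789 and 1.56 CPM, adjusted p = 0.0669), *Maneal* (0.77, 0.4305 and 0.735 CPM, adjusted p = 0.0633) and *Gpr157* (0.30, 77.8 and 95.7 CPM, adjusted p = 0.0864). Most of these genes lay near 1 CPM or below, and *Gpr157* was the abundant exception.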
